A study of Mus musculus with 2 samples.

Results

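The long loops described here were the 609 loops of the replicate 2 list whose anchor midpoints lay 500 kb or more apart, of 5729 loops in that list and 7005 in the lists of both replicates. They were selected on the measured span between anchors in that list, so spans are given as a description and no test was made on them. A loop is listed as a pair of anchors, genome bins 5, 10 or 25 kb wide, beside a whole number called n, which the files leave undefined. The map came from Hi-C, an assay that counts ligation products between DNA fragments lying close together in fixed nuclei, in HPC5, a progenitor cell line of mouse bone marrow. Both replicates were Etv6+/+ (wild type for the ETS-family repressor gene Etv6), the labels name no agent given to the cells, and there was no other group. It is 1 cell line, and the labels do not say whether the 2 replicates came from separate cultures, so differences between them may be technical. The lists hold no expression values, so the labelled cell type could not be set against its markers. They hold no contact totals either, so the depth is unknown. Replicate 1 listed 1276 loops, and 91 of them were 500 kb or longer by the same rule.

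In mammalian cells loops form when the cohesin ring draws chromatin through itself until it meets CTCF, a zinc finger protein bound to DNA, so loop anchors often hold CTCF sites. Loops also join promoters to distal enhancers, and regulators of development often sit beside wide stretches without genes that hold their enhancers. Most mapped loops are shorter than the ones described here.

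Start sites of 7 genes, in 9 promoter windows, lay inside a 5 or 10 kb anchor of a long loop that was also found in replicate 1, and the motif given below was in the windows of 2 of the 7 genes. A window is shown for 4 of them, both genes with the motif and, as examples without it, the genes with 3 long loops each. They are Plk2 and Kcnj2, and Bcl6 and Foxo1. The genes not shown are Basp1, Dazl and Tsc22d1. The 4 encode a transcriptional repressor of germinal centre B cells (Bcl6), a forkhead factor under insulin and PI3K control (Foxo1), a polo-like kinase (Plk2) and an inward rectifier potassium channel (Kcnj2). The sequences are those of RefSeq on GRCm38.p6, the assembly that mm10 names, and each window of 300 bases runs from 250 bases before to 50 after an annotated start site. They are written 5′ to 3′ along the gene's own strand. Capitals mark CAGNNGGCG, a part of the CTCF core motif, searched on both strands.

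Bcl6, chr16:23988803-23989102, minus strand: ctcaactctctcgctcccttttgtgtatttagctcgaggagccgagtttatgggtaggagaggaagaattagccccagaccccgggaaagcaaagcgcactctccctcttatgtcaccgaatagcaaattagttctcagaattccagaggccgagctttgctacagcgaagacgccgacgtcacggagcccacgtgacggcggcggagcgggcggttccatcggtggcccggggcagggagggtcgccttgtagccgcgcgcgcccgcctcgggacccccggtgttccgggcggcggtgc

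Foxo1, chr3:52268087-52268386, plus strand: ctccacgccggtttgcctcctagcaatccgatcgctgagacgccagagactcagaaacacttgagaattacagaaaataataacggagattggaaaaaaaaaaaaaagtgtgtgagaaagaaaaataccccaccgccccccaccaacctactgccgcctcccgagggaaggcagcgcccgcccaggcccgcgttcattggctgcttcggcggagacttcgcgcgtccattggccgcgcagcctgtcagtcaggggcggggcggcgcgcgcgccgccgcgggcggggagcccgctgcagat

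Plk2, chr13:110394794-110395093, plus strand: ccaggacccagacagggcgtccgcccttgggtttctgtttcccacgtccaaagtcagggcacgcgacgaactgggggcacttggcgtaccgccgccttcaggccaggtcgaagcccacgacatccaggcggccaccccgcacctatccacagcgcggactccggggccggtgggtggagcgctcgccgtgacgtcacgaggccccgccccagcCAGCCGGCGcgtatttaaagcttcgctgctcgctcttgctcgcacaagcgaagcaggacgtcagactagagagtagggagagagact

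Kcnj2, chr11:111065914-111066213, plus strand: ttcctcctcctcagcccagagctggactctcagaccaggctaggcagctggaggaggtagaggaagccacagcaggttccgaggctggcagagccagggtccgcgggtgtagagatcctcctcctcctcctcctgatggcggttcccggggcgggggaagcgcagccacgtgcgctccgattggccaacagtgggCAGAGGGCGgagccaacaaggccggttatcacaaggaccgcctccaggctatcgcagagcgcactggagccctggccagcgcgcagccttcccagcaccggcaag

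Bcl6 and Foxo1 held 0 matches in these windows, and Plk2 and Kcnj2 held 1 each. A second window of Bcl6 and those of the genes not shown held 0. A match is a string of letters and not a measured binding site, and the anchors themselves, which are far wider than these windows, were not searched.

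Long loops were mostly called on wide anchors. Of the 609, 459 lay on 25 kb anchors (75.4%, 95% Wilson interval 71.8 to 78.6%), 144 on 10 kb anchors and 6 on 5 kb anchors, while 37.4% of the 5120 shorter loops lay on 25 kb anchors. The median span was 700 kb, with quartiles of 575 and 900 kb and a maximum of 1960 kb. There were 170 loops of 500 to under 600 kb, 160 of 600 to under 750 kb, 154 of 750 to under 1000 kb, 89 of 1000 to under 1500 kb and 36 beyond that. At the same anchor width n was lower for long loops than for shorter ones. The medians of n were 16 and 19 on 5 kb anchors, 20 and 30 on 10 kb anchors, and 37 and 66 on 25 kb anchors. The deposited high list of the same replicate held 150 of the 609, which were all 144 on 10 kb and all 6 on 5 kb anchors and none on 25 kb anchors, so for long loops the lists differ by anchor width. All intervals here are Wilson intervals. They cover counting error only and take each loop as independent, although loops that lie together are not.

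The threshold did not fall in a gap of the distribution. Exactly 500 kb was the span of 37 loops, 49 loops spanned 500 to under 525 kb and 57 spanned 475 to under 500 kb. The 37 comprised 29 on 25 kb anchors with n of 22 to 82 and 8 on 10 kb anchors with n of 15 to 29, 5 of the 37 had a partner in replicate 1, and 18 held a gene end. The one with the highest n, 82, joined chr12:73000001-73024999 to chr12:73500001-73524999 and had a partner. Just under the threshold 10 loops spanned 490 kb with n of 15 to 28, of which 2 had a partner and 2 held a gene end.

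**Figure D1:**
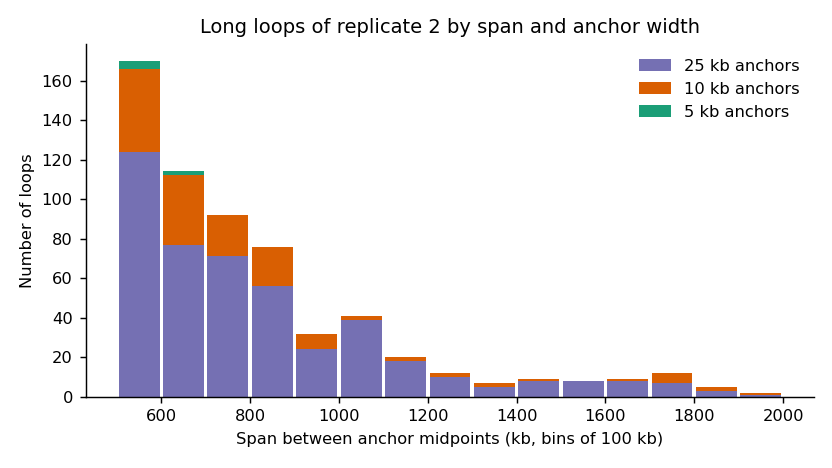
Number of replicate 2 long loops (vertical axis) by span between anchor midpoints in kb (horizontal axis, bins of 100 kb), stacked by anchor width. The first bin holds 170 loops, and 25 kb anchors make up most of nearly every bin, 459 of 609 in all.

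A loop was counted as found in replicate 1 when both anchor midpoints lay within 20 kb of those of a replicate 1 loop. This held for 75 of the 609 long loops, or 12.3% (9.94 to 15.2%), against 966 of 5120 shorter ones, 18.9% (17.8 to 20%), and 18.2% of all loops of the list. The order of long and shorter loops turned with the anchor width. On 10 kb anchors 46 of 144 long loops were found, 31.9% (24.9 to 39.9%), against 21.4% (19.7 to 23.2%) of shorter ones. On 25 kb anchors it was 23 of 459, 5.01% (3.36 to 7.41%), against 7.52% (6.42 to 8.78%), with overlapping intervals. All 6 long loops on 5 kb anchors were found, against 35.3% of shorter ones on such anchors. Distances of 20 kb let 25 kb bins match each other at identical anchors alone, so shares are compared within a width and not between widths.

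Within 10 kb anchors the share did not decline steadily with span. It was 5.43% under 100 kb, 32.5% from 100 to under 200 kb, 32.1% from 200 to under 500 kb, 35.3% (26.0 to 45.9%) from 500 to under 750 kb and 27.1% (17.4 to 39.6%) beyond. The intervals of the last 4 classes overlap. The excess of long over shorter loops at this width went with the low share of the shortest class, loops under 100 kb.

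**Figure D2:**
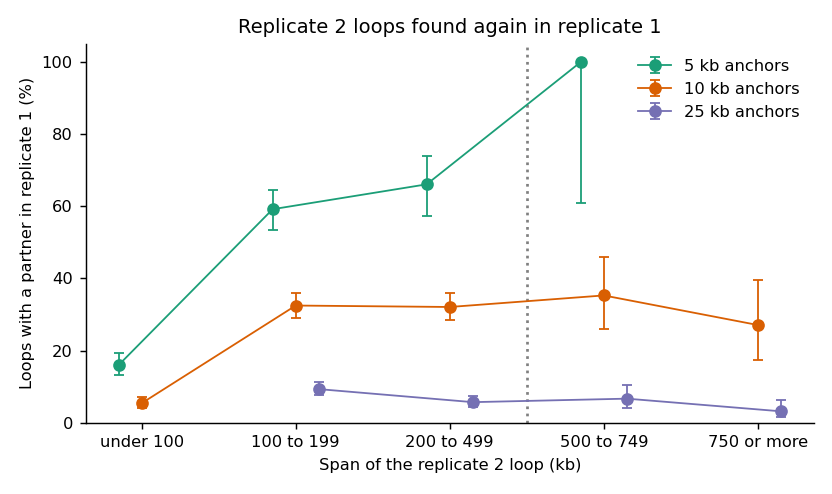
Share of replicate 2 loops with a partner in replicate 1 (vertical axis, %) by span class in kb (horizontal axis), 1 line per anchor width, with 95% Wilson intervals. The dotted line marks 500 kb. Classes to its right stand at 35.3 and 27.1% on 10 kb anchors and at 6.69 and 3.18% on 25 kb anchors, and the 5 kb point there rests on 6 loops.

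Every one of the 75 partners spanned 500 kb or more in replicate 1, and 73 of the 75 lay on 25 kb anchors there, with 73 distinct partners in all. At the 24 long loops with the same anchors in both replicates, n was 19.5 in replicate 1 and 49.5 in replicate 2 at the median. It was higher in replicate 2 at all 24, by 1.80 to 3.48 times. Since the depth of each library is unknown, these values say nothing of contact strength. In the other direction 75 of the 91 long loops of replicate 1 were found in replicate 2, 82.4% (73.3 to 88.9%), against 80.5% of its shorter loops, which lies inside that interval, and 80.6% of all of them. Of the 534 long loops without a partner, 389 (72.8%, 68.9 to 76.4%) had no anchor that overlapped any anchor of the replicate 1 list, against 77.7% (76.4 to 78.9%) of shorter loops without a partner. In 129 one anchor did, and in 16 both did, each as part of other loops. On 10 kb anchors 35.7% (26.9 to 45.6%) of such long loops had at least 1 overlapping anchor, against 24.7% (22.7 to 26.8%) of shorter ones. On 25 kb anchors, which hold 436 of the 534, it was 25.2% (21.4 to 29.5%) against 20.7% (18.8 to 22.6%), with overlapping intervals.

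A gene was counted at an anchor when either end of a protein-coding gene lay inside it. A loop given for a gene therefore need not reach its promoter. Of 349 genes at long-loop anchors with an annotated start site, 205 (58.7%, 53.5 to 63.8%) had a start site in such an anchor. Only the outermost annotated ends count, so an anchor with a start site inside a gene, such as those of Tsc22d1, can count as having none. Long loops had a gene end at both anchors in 69 cases, 11.3%, against 15.2% of all loops of the list. At neither anchor was there a gene end in 298, 48.9% (45 to 52.9%), against 45.3% of all loops, and in 242 (39.7%) there was one at a single anchor. At matched anchor width the difference was larger. On 10 kb anchors 65.3% (57.2 to 72.6%) of long loops had a gene end at neither anchor, against 49.8% (47.7 to 51.9%) of shorter ones, and 2.08 against 11.3% had one at both. On 25 kb anchors the shares were 43.1% (38.7 to 47.7%) against 29.9% (27.8 to 31.9%) for neither, and 14.4 against 25.9% for both. Counting whole gene bodies kept the order, with 29.2 against 13.8% for neither on 10 kb anchors and 19.6 against 7.46% on 25 kb anchors. For the 838 anchors of long loops without a gene end, the nearest end lay 45.5 kb from the anchor midpoint at the median, against 22.8 kb for those of shorter loops. These medians pool all anchor widths. A wider anchor without a gene end sets a larger least distance, so part of this difference comes from the wider anchors of long loops.

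Of the 75 long loops found in both replicates, 49 had no gene end at either anchor, 25 had one at a single anchor and 1 had one at both. The 49 include the 505 kb loop whose anchor holds the Tsc22d1 start sites. In all 26 with a gene end, the matching replicate 1 anchor held an end of the same gene. This follows largely from the matching rule and is no separate measure of agreement. The rule pairs 25 kb bins at identical anchors alone, and narrower anchors with bins over or close beside them. In 5 of the 26 the wider replicate 1 bin took in a gene at the opposite anchor as well, such as Map2k6 opposite Kcnj2 or Cog6 opposite Foxo1.

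Among these, Bcl6 had the longest loop after Zfp982. It joined chr16:23980001-23989999 to chr16:25050001-25059999, 1070 kb away, with n of 20, and replicate 1 had it at 1075 kb on 25 kb anchors with n of 34. From the same side of Bcl6 replicate 2 listed 2 further long loops, of 650 and 1280 kb, without a partner. Foxo1 likewise had 3 long loops, of 575, 740 and 1200 kb, all to the right of its start. The 740 kb loop, from chr3:52260001-52269999 to chr3:53000001-53009999, had n of 17 and a replicate 1 partner of 725 kb with n of 30. For both genes the partner lay on wider anchors, so its n is not comparable.

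Fli1 and Tlr4 could be compared at identical anchors. Fli1, an ETS-family factor of blood and vessel cells, had its left end in chr9:32400001-32424999, joined over 525 kb to chr9:32925001-32949999, with n of 19 in replicate 1 and 37 in replicate 2. Tlr4, the receptor for bacterial lipopolysaccharide, lay whole in chr4:66825001-66849999, joined over 550 kb to chr4:67375001-67399999, with n of 23 and 80. By gene ends each had this loop alone, and that of Tlr4 passed over 0 genes and that of Fli1 over 1. A 690 kb loop with n of 18 and no partner started at chr9:32400001-32409999. That anchor lies inside the 25 kb anchor of Fli1 but does not reach the gene.

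The other receptors and channels of this group were Ptger4, a prostaglandin E2 receptor (680 kb), and the potassium channel genes Kcnj2 (530 kb), Kcnq5 (550 kb) and Kcnd3 (770 kb, together with the helicase gene Ddx20). Secreted proteins were Vcan, an extracellular proteoglycan (775 kb), and Adamts6, a metalloprotease (500 kb). Genes of RNA metabolism were Ddx1, an RNA helicase (790 kb), Nxt1, an mRNA export factor (525 kb), and Dazl, a germ cell RNA-binding protein (500 kb). Uchl5 (570 kb) and Otud4 (1025 kb) encode deubiquitinases, the latter beside Abce1, a ribosome recycling factor. The remaining ones were Zfp982 (1960 kb), Luzp2 (875 kb), Basp1 (820 kb), Mpp6 (675 kb), Krt80, a keratin (640 kb), Lonrf2 (610 kb), Selenos, a selenoprotein (575 kb), Plk2 (570 kb), Mtfr2 (560 kb) and Mmadhc, of cobalamin metabolism (510 kb). The single loop with a gene end on both sides joined Aim2, a cytosolic DNA sensor, and its neighbour Ifi206 to the olfactory receptor genes Olfr427 and Olfr231 over 650 kb, with n of 23 in replicate 1 and 59 in replicate 2.

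**Figure D3:**
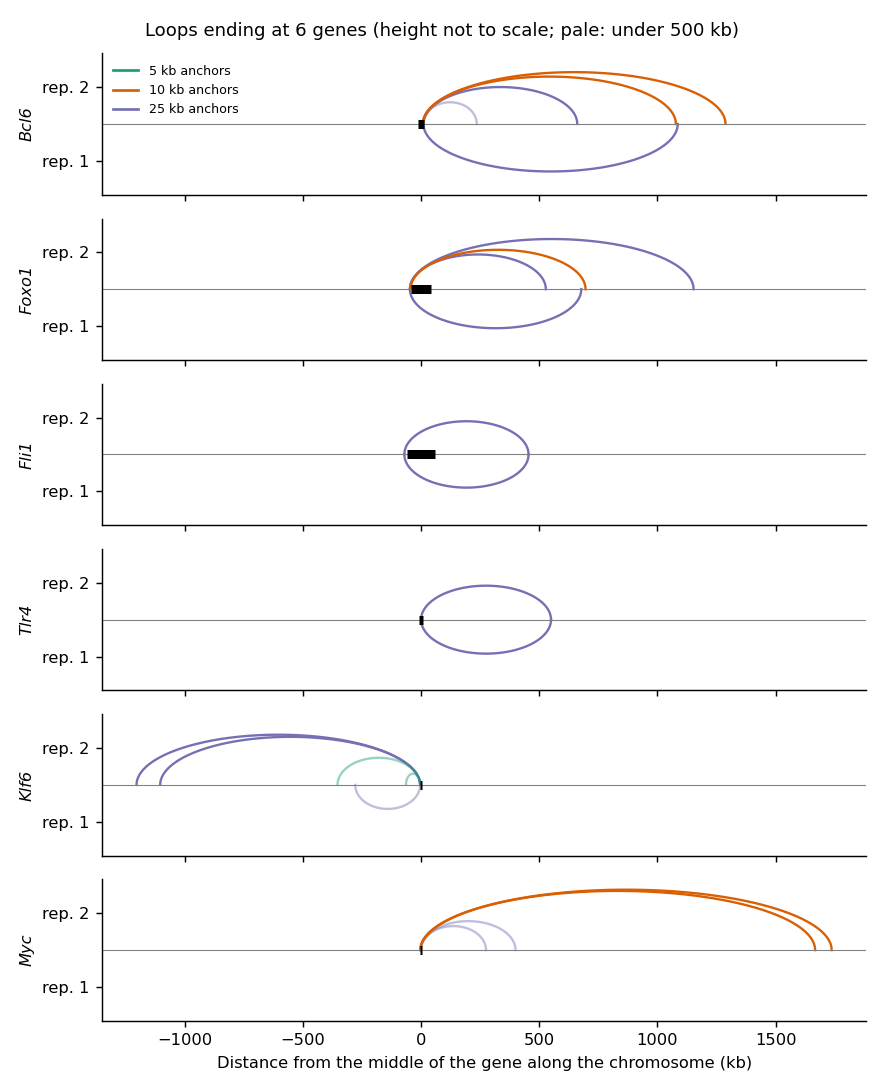
Loops that end at Bcl6, Foxo1, Fli1, Tlr4, Klf6 or Myc, drawn as arcs against distance from the middle of the gene (horizontal axis, kb), with replicate 2 above each line and replicate 1 below it. Black boxes are the genes, colours give the anchor width, pale arcs are loops under 500 kb and arc height is not to scale. Fli1 and Tlr4 show the same arc in both replicates, Klf6 only a shorter one in replicate 1 (275 kb), and Myc none there.

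In the narrow-anchor set, the 13 long loops with the highest n on 5 or 10 kb anchors (10 and those tied with the tenth) had n of 29 to 41, and 12 of the 13 had a partner. Gene ends lay at 3 of the 13, at Zfp982, Kcnj2 and Dazl. The first, at chr4:145550001-145559999 and chr4:147510001-147519999, was the longest of all long loops and had the same 10 kb anchors in replicate 1, with n of 17 against 41. The next 11 by span were 1750 to 1925 kb long, and none had a partner. Their anchors held Gtf2a1l (1850 kb), Atxn7l1 and Efcab10 (1800 kb), Styk1 (1780 kb) and, at 1750 kb, Kctd16, Rc3h1, or Gtf2e2 and Smim18 joined to Eri1, and 5 of the 11 held no gene end.

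Of 21521 protein-coding genes, 439 (2.04%) had an end at a long-loop anchor and 4267 (19.8%) at any anchor of the list. Of the 439, 169 also had a shorter loop, 61 had 2 or more long loops, and 31 lay at long loops found in both replicates. The gene lists were drawn up with earlier results of these data known, so their counts are a description. The list of 48 stem and progenitor regulators had 22 genes at any anchor and 9 (18.8%) at a long-loop anchor. Of 90 developmental transcription factors 16 lay at any anchor and 4 (4.44%) at a long one. The TNF and NF-kB inflammatory response list had 17 and 2 of 50 (Map3k8 and Sod2), the interferon response list 8 and 1 of 43 (Aim2), and the list of loop extrusion and chromosome architecture genes 7 and 0 of 19.

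The 13 genes of the stem and developmental lists had 17 long loops with a median span of 900 kb. Of the 17, 12 skipped no gene, against 64 of the 311 long loops with a gene end at any anchor (20.6%), and these 12 belonged to 8 of the 13 genes. A gene end at one anchor alone was found in 16 of the 17, against 242 of the 311 (77.8%). One of the 17, that of Fli1, had a partner in replicate 1, against 26 of the 311 (8.36%). The 12 reached from a regulator across a stretch with no whole protein-coding gene in it. Zeb2, a zinc finger repressor, had a 1325 kb loop from chr2:45100001-45124999 to chr2:46425001-46449999 with n of 48. Klf6, a Krüppel-type zinc finger factor, was the right anchor of loops of 1100 and 1200 kb, with n of 41 and 35. Id2, an inhibitor of basic helix-loop-helix factors, had a 975 kb loop with n of 24. Mycn, a Myc relative, was joined over 520 kb to chr12:12410001-12419999 with n of 17. Tbx3, a T-box factor, had loops of 800 and 900 kb with n of 38 and 31, and Bhlhe22 of 1000 kb. Each of these loops skipped 0 genes and none had a partner. The growth regulator Myc (1670 and 1740 kb) and the progenitor factor Sox4 (650 and 880 kb) also had 2 such loops each. The loops that skipped genes were those of Foxc1, a forkhead factor (800 kb, 1 gene skipped), Nkx2-2, a homeobox factor (540 kb, 3 skipped), Fli1 (1 skipped), and Hoxa9 (640 kb, and 1000 kb together with Hoxa7, 8 skipped each).

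Genes outside the lists, named here after their values were seen, also had long loops. Maf, a leucine zipper factor, was joined to its left over 625 and 950 kb with n of 45 and 41. Nrp1, a coreceptor for semaphorins and VEGF, was joined to its left over 525 and 1025 kb with n of 65 and 38. All 4 loops skipped 0 genes, and none had a partner. Other transcription factor genes outside the lists had long loops that did skip genes. Among them were Foxf2 (1075 kb, 5 skipped), Osr2 (875 kb, 3 skipped) and Barx1 (500 kb, 3 skipped). Nrip1, a corepressor of nuclear receptors, lay between 2 long loops, of 600 kb to Hspa13 on one side and of 650 kb to Usp25 on the other.

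Families of clustered genes differed in how many members lay at long loops. Histone genes had 20 of 67 (29.9%) at long-loop anchors and Hox genes 10 of 39 (25.6%), against 2.04% of all genes, but neighbouring members share anchors, so these are not independent counts. The 10 Hox genes were 4 of the Hoxd cluster in 1 anchor (875 kb loop), 5 of the Hoxa cluster in 1 anchor and Hoxa13 (580 and 650 kb loops). Olfactory receptor genes had 8 of 1109 (0.721%), vomeronasal receptor genes 1 of 352 (0.284%), numbered Zfp zinc finger genes 5 of 397 (1.26%), solute carriers 5 of 389 (1.29%), keratins 2 of 112 (1.79%), cytochrome P450 genes 2 of 99 (2.02%) and killer and C-type lectins 2 of 60 (3.33%). Anchors of any span held 26 histone (38.8%), 16 Hox (41.0%), 25 olfactory receptor (2.25%) and 5 vomeronasal receptor genes (1.42%). They held 79 numbered Zfp genes (19.9%), against 19.8% of all genes. Protocadherin, serpin and immunoglobulin-like receptor genes had 0 of 69, 63 and 30, although 24 of the protocadherin genes lay at shorter loops.

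By gene symbol, 5 long loops held genes of one of the families above, or of one symbol stem, at both anchors, none with a partner. Of these, the loops of 1500 and 1725 kb shared the left anchor chr13:22025001-22049999 with its histone genes (among them H2ac12, H2bc12 and H4c9) and ended at other histone genes of chromosome 13, with n of 45 and 28. The others joined Olfr765 to Olfr822 (1050 kb), Zfp78 to Zfp773 (775 kb), and Cep57 to Cep295, both centrosomal protein genes, over 1475 kb. A 675 kb loop on chromosome 7, noticed after its genes were seen, joined Mrgpra1 to Mrgprx1, both Mas-related receptor genes. Other families were not searched.

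Long loops passed over few genes for their length. A gene counted as skipped when it lay wholly between the inner edges of the anchors. The median was 2 skipped genes, with quartiles of 1 and 3, and 186 of the 609 skipped exactly 1. Per length, the stretches held 4.43 genes per Mb, against 6.72 for loops of 200 to under 500 kb, 7.36 for all shorter loops and 8.38 over the chromosomes. The chromosome values here count every gene, while a stretch leaves out genes that reach past its inner edges. Part of the difference from the chromosomes therefore comes from the counting. Of the long loops, 511 (83.9%, 80.8 to 86.6%) had fewer genes per Mb between their anchors than their own chromosome, against 71.5% (69.3 to 73.6%) of loops of 200 to under 500 kb. Protein-coding genes covered 34.3% of the stretch at the median, against 52.3%. The density was 3.36 genes per Mb for long loops found in both replicates, 2.80 for those with no gene end at either anchor and 8.79 for those with one at both.

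At the other extreme 43 long loops skipped 10 or more genes and 17 skipped 20 or more. The 5 highest counts lay in gene clusters. On chromosome 13 histone loops of 1725 kb each skipped 65 and 61 genes, on chromosome 11 a 900 kb loop from Krt10, an epidermal keratin, skipped 58, and olfactory receptor loops on chromosomes 10 and 2 skipped 50 and 43. None of these 5 had a partner. The 5 longest loops without a skipped gene were the 2 of Myc, one of 1710 kb at chr13:81940001-81949999 and chr13:83650001-83659999 with no gene end, and 2 of 1500 kb on chromosome 3, one of them from Fat4, an atypical cadherin. In 4 long loops both anchors lay inside a single gene, Rabgap1l (500 kb), Anks1b (600 kb), Dpp6 (540 kb) or Agbl1 (550 kb).

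**Figure D4:**
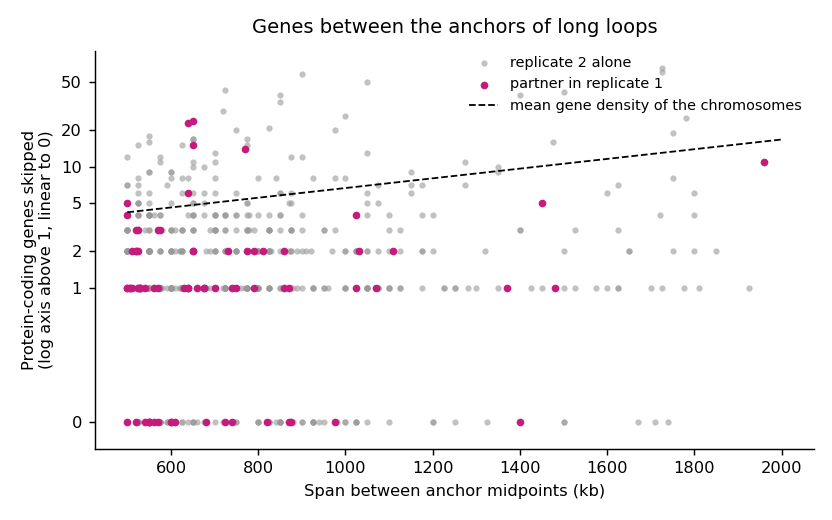
Protein-coding genes skipped (vertical axis, logarithmic above 1 and linear down to 0) against span in kb (horizontal axis) for the 609 long loops, with the 75 found in both replicates in magenta. The dashed line is the count that the mean density of the chromosomes, 8.38 genes per Mb, would give over the span. It counts every gene, while the points count only genes wholly between the inner edges of the anchors. Most points lie under it, and the highest reaches 65 genes.

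Chromosome 13 held more long loops than any other. They were 76 of its 327 loops, 23.2% (19.0 to 28.1%), or 0.648 per Mb, and made up 12.5% of all long loops. The next shares were 15.1% on X, 15% on chromosome 14 and 14.4% on chromosome 18, whose intervals all reach past 19.0%. Per Mb these chromosomes held 0.125, 0.279 and 0.331 long loops. X had 139 loops of any span over 168 Mb, and per Mb only chromosome 9 (0.124) held fewer long ones. The lowest shares were 4.17% on chromosome 11, 5.42% on 9 and 5.57% on 7. In replicate 1, which the selection did not use, 13 of 71 loops of chromosome 13 were long (18.3%, 11.0 to 28.8%). The share was 18.5% on X and 15.5% on chromosome 12. Chromosomes 14 and 18 stood low there, with 1 of 46 loops (2.17%) and 2 of 48 (4.17%). For both, the intervals of replicates 1 and 2 overlap. Across the 20 chromosomes the share of long loops fell with gene density, with Pearson's r of -0.69 and Spearman's rho of -0.83. The share depends on the number of shorter loops too, and no correlation was computed for long loops per Mb. Long loops per Mb were 0.134 and 0.143 on the gene-rich chromosomes 7 and 11. They were 0.268 and 0.240 on chromosomes 2 and 19, also gene-rich, and 0.125 on X, with 5.75 genes per Mb. These values describe the chromosomes of 1 library. The 5 Mb window with the most long loops was the histone region at 20 to 25 Mb of chromosome 13, with 10 of 27 loops. Of the 10 windows with 6 or more long loops, 6 lay on that chromosome.

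**Figure D5:**
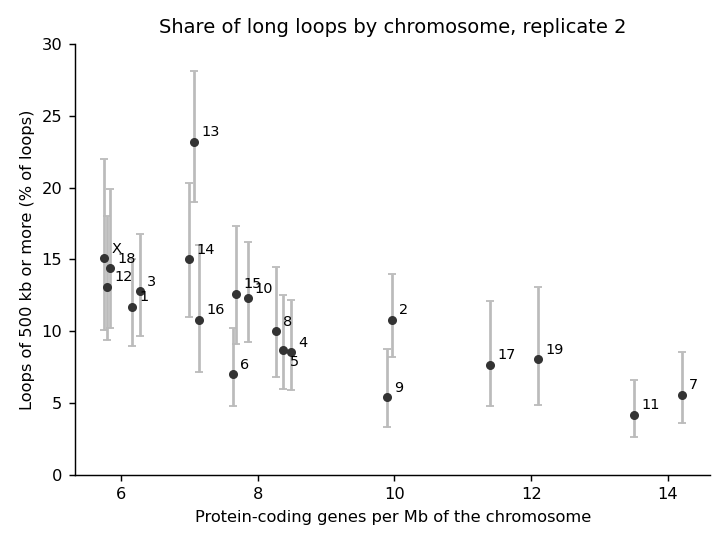
Share of a chromosome's replicate 2 loops that span 500 kb or more (vertical axis, %, with 95% Wilson intervals) against its protein-coding genes per Mb (horizontal axis), 1 labelled point per chromosome. Chromosome 13 stands highest at 23.2%, and the gene-rich chromosomes 7 and 11 stand at 5.57 and 4.17%.

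The long loops were spread over many places. Merged where they overlap, they formed 432 separate stretches that covered 381 Mb, 14.8% of the 2570 Mb between the first and last genes of the chromosomes. Of these stretches 309 held 1 long loop, and the fullest held 10. Anchors were told apart by exact coordinates here, so a 10 kb bin inside a 25 kb bin counts as a separate anchor. Of 1140 distinct anchors 1068 took part in 1 long loop, 66 in 2 and 6 in 3. Sites with overlapping anchors of different widths can hold more long loops than these counts give. The anchors with 3 included the histone anchor on chromosome 13 (1400 to 1725 kb), one at Washc3 and Dram1, a WASH complex subunit and an autophagy regulator (650 to 1275 kb), and one without genes at chr4:6550001-6574999 (1300 to 1800 kb). The remaining 3, on chromosomes 3 and 13, held no gene end either, and no long loop of these 6 anchors had a partner. Bcl6 and Foxo1, with 3 long loops each, are not among the 6, because their loops lay on overlapping anchors of different widths. For each of these genes 1 long loop had a partner. At chr6:49500001-49524999 and the 10 kb anchor inside it, long loops of 590, 675, 780 and 1050 kb met, and that of 675 kb had a partner.

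Anchors shared with shorter loops were frequent but not general. In 304 long loops (49.9%) no anchor overlapped an anchor of a shorter loop, in 218 one did and in 87 both did. Long loops found in both replicates had such an anchor in 33 of 75 cases (44%, 33.3 to 55.3%), against 272 of 534 (50.9%, 46.7 to 55.2%) of the others, and these intervals overlap. Between the anchors 217 long loops (35.6%) held no shorter loop at all, and the median was 1. The most, 11, lay inside the 570 kb loop on chromosome 1 whose anchor held the right end of Uchl5, away from its start. In 27 long loops a chain of 2 other loops joined the same anchors through a middle one. For Foxo1, the 740 kb loop and one of 450 kb together made up the 1200 kb loop. The Sox4 loop of 880 kb was made up of loops of 650 and 225 kb, and the Foxc1 loop of 800 kb of loops of 410 and 400 kb. A 520 kb loop on chromosome 4 found in both replicates was made up of loops of 175 and 325 kb that met at Bach2, a repressor of lymphoid cells.

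Domains, the blocks of raised self-contact listed for replicate 2, were mostly shorter than these loops, with a median of 365 kb and a maximum of 950 kb over 339 domains. Both anchors lay within 25 kb of the edges of 1 domain in 25 long loops, 4.11% (2.80 to 5.99%), against 2.75% (2.34 to 3.24%) of shorter loops, again with overlapping intervals. At least 1 anchor lay at a domain edge in 125, 20.5% (17.5 to 23.9%), against 11.2% (10.4 to 12.1%). Both anchors lay inside 1 domain in 35 (5.75%), against 12.8%, and 27 (4.43%) held a whole domain between them, against 0.371%. Both of these orders follow in part from the selection on span, because only 54 of the 339 domains spanned 500 kb or more. Seen from the domains, 24 of the 54 that spanned 500 kb or more had a long loop at both edges.

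Genes that start at long-loop anchors ran into and away from the loop about equally. The strand was known for the 17274 of 21521 genes (80.3%) in the RefSeq promoter table. Of 253 start sites at long-loop anchors 126 (49.8%, 43.7 to 55.9%) belonged to genes running into the looped stretch, against 49.7% (47.7 to 51.8%) at shorter loops. The motif CAGNNGGCG lay in 34 of 241 promoter windows at long-loop anchors, 14.1% (10.3 to 19.1%), in 13.8% of those at shorter loops and in 10.7% of all 21045 windows, both inside that interval. Median GC was 57% at long loops, 59.3% at shorter ones and 56.7% in all windows. Besides Plk2 and Kcnj2 shown above, windows with a match at long-loop anchors included those of Foxc1, Hoxd3, the histone gene H1f1 and Creb1, a cyclic AMP response factor (650 kb).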

How the data were processed

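Hi-C was run on 2 samples of 1 group, and each deposited list belongs to 1 replicate. Per the submitters' processing notes, the authors worked on the mm10 build with HiC-Pro 2.11.1. What called the loops and the domains is not given in the sources used here. The authors deposited genome positions, with n and qBL undefined in the files, and no read totals, so there is no detection floor to give. No contact matrix was used here.

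Coordinates of loops are those deposited, and spans run between anchor midpoints. Gene positions were those of RefSeq on GRCm38.p6 (21521 protein-coding genes, with 345 genes, 110 of them protein-coding, left out because their coordinates are those of scaffolds). Strand and promoters came from the RefSeq promoter table. The planned motif search over whole anchors was run on promoters alone, because no genome sequence was used. Counts and shares with 95% Wilson intervals were computed with Python 3.11.15, pandas 2.3.3, numpy 2.4.6 and scipy 1.17.1, and figures with matplotlib 3.10.9. No test was made, because 1 library lies on each side of every comparison and loops are not replicates. Partner matching was tested on simulated data.

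The members, the gene lists and the rule for naming loops were chosen with earlier results of these data known. Named loops are the 10 longest, all with a partner and a gene end, the 10 with the highest n on 5 or 10 kb anchors, the 5 that skip the most genes, the 5 longest that skip none, the anchors with the most members and those on either side of the threshold, where ties in a rank are given in full. Named genes are those of these loops, list members at long-loop anchors and same-family pairs at both anchors. Genes of other loops (those marked so in the text, and those of chained loops, loops inside 1 gene and promoters with a motif match) were chosen after seeing their values. Alternatives were other spans, matching distances, lists and gene definitions.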

Additional observations from a re-analysis of the deposited data

How the results depend on the processing

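Of 47 alternatives, 22 left the value within its counting interval or within 1.5 times the count, and 25 moved it. The number of long loops was 279 at 750 kb, 125 at 1000 kb and 150 in the high list, and without replicate 2 the replicate 1 list gave 91. The share with a partner (12.3%) was 8.54% within 10 kb, 1.33% between the high lists, 8.24% at 750 kb and 8% at 1000 kb. The share with a gene end at neither anchor (48.9%) was 37.9% with ends within 5 kb, 29.6% within 10 kb, 21.8% with gene bodies, 27.1% with all annotated genes and 66.7% in the high list, which has no 25 kb anchors. The share with one at both (11.3%) was 18.2, 23.5, 35.1, 23.6 and 2% in the same order. The changes with wider windows, gene bodies and all annotated genes follow from their construction, which can only add genes. The median of skipped genes was 9 with all annotated genes. Without replicate 2 these values were 46.2% for neither, 11.0% for both and 1 skipped gene. Chromosome 13 held 16.5% of long loops at 750 kb and 16.8% at 1000 kb, against 12.5%. The share with an anchor at a shorter loop (50.1%) was 28.2% for identical anchors, 58.1% for midpoints within 20 kb and 59.2% at 1000 kb. Loops at both edges of a domain numbered 7 within 10 kb of the edges, against 25. The causes of the other changes were not tested. On 10 kb anchors more long than shorter loops had a partner at every distance tried, and on 25 kb anchors fewer, but the intervals overlapped on both widths within 10 kb, on 10 kb anchors within 50 kb and on 25 kb anchors by overlap. No paired analysis was possible because both replicates form 1 group. The unknown depth limits every count of loops absent from a list.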

Other observations

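Replicate 1 had 16 long loops without a partner in replicate 2, of 91. For 11 of the 16 replicate 2 listed a loop within 50 kb at both anchors. The longest joined the histone anchor of chromosome 13 over 1475 kb to chr13:23500001-23524999, with n of 17 and 41 genes skipped, where replicate 2 listed 1500 kb from the same anchor. From Ptger4 replicate 1 listed 825 kb (n of 24), and replicate 2 listed 850 kb from the same anchor, with its far end 25 kb on. Those without a replicate 2 loop near them included one of 1025 kb from Atp6v1a, a proton pump subunit, and Naa50 to Slc35a5 and Atg3, an autophagy enzyme, with 12 genes skipped, and one of 750 kb from Tfec, a relative of Mitf, to Capza2, an actin capping subunit, with 4 skipped.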
